A study of Mus musculus with 9 samples.

Results

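Replacement histone variants were followed at the transcript level in BV2, a mouse cell line immortalised from microglia, which are the resident macrophages of brain tissue. The 8 genes H2afx, H2afz, H2afv, H2afj, H2afy, H2afy2, H3f3a and H3f3b were taken by their symbols from a table of 21951 genes, and all 8 were found. Of these, 7 had enough reads to be tested, together with 11295 genes in all, and H2afy2 did not. Control cells received vehicle, 20% HP-β-CD, without irradiation. Irradiated cells received the same vehicle for 30 min and then 1 X-ray dose of 10 Gy. Triol-treated cells received 10 µM of the steroid 5α-androst-3β, 5α, 6β-triol for 30 min and then the same dose. Each group held 3 libraries of wild-type BV2 cells. Whether triol-treated cells also received vehicle is not said. The treatment labels of triol replicates 2 and 3 name another position for the last hydroxyl than their titles, so the compound there rests on the titles. The design has no triol group that was spared irradiation. How long after the dose RNA was taken is not stated in the labels.

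Nucleosomes are built mostly from canonical histones, whose genes are expressed in S phase and whose messenger RNAs end in a stem-loop in place of a poly(A) tail. Replacement variants come from polyadenylated transcripts made throughout the cell cycle, and chaperones exchange them into chromatin outside replication. H2A.X carries a C-terminal serine that the kinases ATM, ATR and DNA-PK phosphorylate next to DNA double-strand breaks, H2A.Z marks promoters and enhancers, H3.3 accumulates in transcribed genes and at telomeric and other repeats, and macroH2A, which has a large additional domain, is mostly associated with repressed chromatin.

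Total counts were 13879062 to 18944051 per library. The labels do not tell whether replicates were separate cultures. The p-values therefore cover the spread among these libraries, and that spread may be technical. Among the 12 markers of microglia that were looked up, Cd68 and Csf1r reached 775 to 843 and 489 to 535 RPM (reads scaled to the library total) in control libraries. P2ry12 and Tmem119, which mark resting microglia, were at 0.452 to 0.992 and 1.02 to 1.27 RPM there. Aqp4, of astrocytes, and Olig2, of oligodendrocytes, had 0 counts in every library. Of 4 markers each of astrocytes and neurons only Slc1a2 and Tubb3 were tested. Both rose on irradiation, from at most 0.708 and 0.142 RPM in control libraries to at most 1.93 and 2.55 RPM with or without triol. These 2 genes had enough reads to be tested only in the irradiated groups, so the filter favoured a rise. In bulk RNA, fewer cells of a kind and less RNA per cell cannot be told apart.

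The sequences of the genes show what separates H2afx from the other members and each gene from its paralogue. They were read from GENCODE M21 transcripts on GRCm38. H2afx lies on chromosome 9 from 44334694 to 44336077 (plus strand) and has 1 exon. The last 39 coding bases, stop codon included, are shown for the 4 small H2A variants, with the last 4 codons before the stop in capitals, where H2afx encodes the phosphorylated serine.
H2afx: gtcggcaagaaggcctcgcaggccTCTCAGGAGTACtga
H2afj: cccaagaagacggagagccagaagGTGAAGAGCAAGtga
H2afz: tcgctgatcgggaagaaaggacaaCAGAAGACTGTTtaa
H2afv: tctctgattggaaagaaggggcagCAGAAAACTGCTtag
These stretches lie at chr9:44335155-44335193 (plus), chr6:136808691-136808729 (plus), chr3:137866409-137866447 (plus) and chr11:6428371-6428409 (minus).

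A match to the consensus of the histone stem-loop was looked for on the sense strand of all coding transcripts. Among the 8 members it was found in H2afx alone, 46 bases after the stop codon and 822 bases before the transcript end. The stem is in capitals below, beside those of replication-dependent genes of the H2A, H2B and H4 families that were chosen to show its form.
H2afx: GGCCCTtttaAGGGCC
Hist1h2ac: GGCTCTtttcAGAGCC
Hist1h2bg: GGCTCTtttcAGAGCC
Hist1h4i: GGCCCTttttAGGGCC
The H2afx match is at chr9:44335240-44335255, and those of the other genes are at chr13:23683477-23683492 (minus), chr13:23571843-23571858 (plus) and chr13:22040966-22040981 (minus). The match was present in 42 of 61 replication-dependent core histone genes and in 68 of 21866 genes of the table with a coding transcript, or 0.311%. The H2afx transcript also holds the poly(A) hexamer ATTAAA 35 bases before its end, so the annotated transcript carries both kinds of 3′ end signal. Which end the reads came from was not tested.

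H3f3a and H3f3b encode the same H3.3 protein from different genes, on chromosome 1 from 180800832 to 180813943 and on chromosome 11 from 116021912 to 116027962, both on the minus strand. The first 90 coding bases are shown with the differing positions in capitals.
H3f3a: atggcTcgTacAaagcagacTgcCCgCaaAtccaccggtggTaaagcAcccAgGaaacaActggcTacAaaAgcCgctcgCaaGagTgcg
H3f3b: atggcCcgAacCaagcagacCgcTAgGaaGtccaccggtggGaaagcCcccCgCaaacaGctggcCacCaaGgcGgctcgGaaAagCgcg
Over the 411 coding bases 95 differed, 81 of them at the third position of a codon, and the longest identical run was 23 bases. H2afz and H2afv, which encode the closely similar H2A.Z.1 and H2A.Z.2, differed at 81 of 387 coding bases, with a longest identical run of 14. GENCODE also lists processed pseudogenes of H3f3a, and the treatment of reads with several matches is not stated in the labels. The H3f3a counts are uncertain to that extent. Pseudogenes of the other members, H3f3b among them, were not looked up, so the same limit may apply to their counts. Of the exonic bases of H3f3a 25.5% lie opposite genes of the other strand, among them H3f3aos, whose reads could be included if the counting ignored the strand. That share was 12.4% for H2afy, 10.7% for H2afy2, 10.2% for H2afx, 7.70% for H2afj and 0 for H2afz, H2afv and H3f3b.

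In the 250 bases before the RefSeq start site (GRCm38.p6), H3f3b held elements that H3f3a did not. The motifs CCAAT, ATGCAAAT (the octamer of many histone gene promoters), TATAAA and TTTNGCGC (an E2F-like site) were searched on both strands and were chosen with the sequences known. H3f3b had 4 CCAAT, 1 octamer and 1 TATAAA, and H3f3a had 1 CCAAT, which is on the other strand. The sites are shown with their flanks, the motif in capitals, since these genes differed in the response described below. Whether the elements bear on that response was not tested.
H3f3b CCAAT: ctttgcatccagCCAATcctgaagcaatt
H3f3b CCAAT: caattgtaacagCCAATcagtggcctgaa
H3f3b CCAAT: cctgaacaccggCCAATcaggaaacggcc
H3f3b CCAAT: cgaaagctcccgCCAATcgaaaaagtcgt
H3f3b octamer: tcgttggtgtATGCAAATcagggttctgt
H3f3b TATAAA: tgcagcgtctcTATAAAtatggaggcgtc
H3f3a CCAAT: ccattgtgtgtgATTGGctggagcgcggc
On the minus strand the H3f3b sites span chr11:116024514-116024730, and the H3f3a site lies at chr1:180813613-180813641. Of 32851 promoters of the same length 33.9% held CCAAT, 0.840% held it at least 4 times, 1.6% the octamer, 12.4% TATAAA and 1.13% the E2F-like site. H2afv had 4 CCAAT, H2afj 3 and H2afz 2, and H2afy and H2afy2 had 0. The number of E2F-like sites was 0 in the 7 members with an entry.

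Levels between genes were compared per kilobase of exon, as TMM-normalised CPM divided by the exonic length of the coding transcripts. H2afz was highest in control libraries at 298 ± 5.43 CPM per kilobase (mean ± SD, n = 3), followed by H3f3b at 129 ± 1.26. H2afy at 65.3 ± 1.31 and H3f3a at 64.6 ± 2.69 overlapped, and H2afx was lower at 53.3 ± 2.87. H2afv was at 17.7 ± 1.79 and H2afj at 12.8 ± 1.78, without overlap. H2afy2 was lowest at 0.197 ± 0.0371 RPM per kilobase. After irradiation H2afy overlapped with H3f3a again. In triol-treated libraries H2afy (55.4 ± 1.31) overlapped with H2afx (55.4 ± 1.52) and lay below H3f3a (65.8 ± 2.65).

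The first comparison asked how irradiation changed these transcripts. Of the 7 tested members 4 rose and 1 fell in the quasi-likelihood test of edgeR at an adjusted p of 0.05. Over all tested genes 44.3% were called, 22.1% up and 22.2% down. With upper quartile scaling or library totals the split was 4 and 0, and the calls over all genes also shifted upward, to 2919 up and 2116 down and to 3034 up and 2043 down, from 2498 and 2505. For 5 of 7 members, and for 50.7% of all tested genes, no irradiated library overlapped with control. The median log2 fold change was 0.13 over the members and 0.01 over all tested genes. H3f3b rose most, by 24.6%, and its paralogue H3f3a did not pass. H2afv, H2afz and H2afx rose by 8.28% to 17.9%, and H2afy, which encodes macroH2A1, fell by 7.65%. Of the 5 calls, 4 (H2afx, H2afz, H2afv and H2afy) were lost when 1 particular library was left out, as given with each gene below. The number of called members was 3 without control replicate 3 and 3 without irradiated replicate 2.

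**Figure D1:**
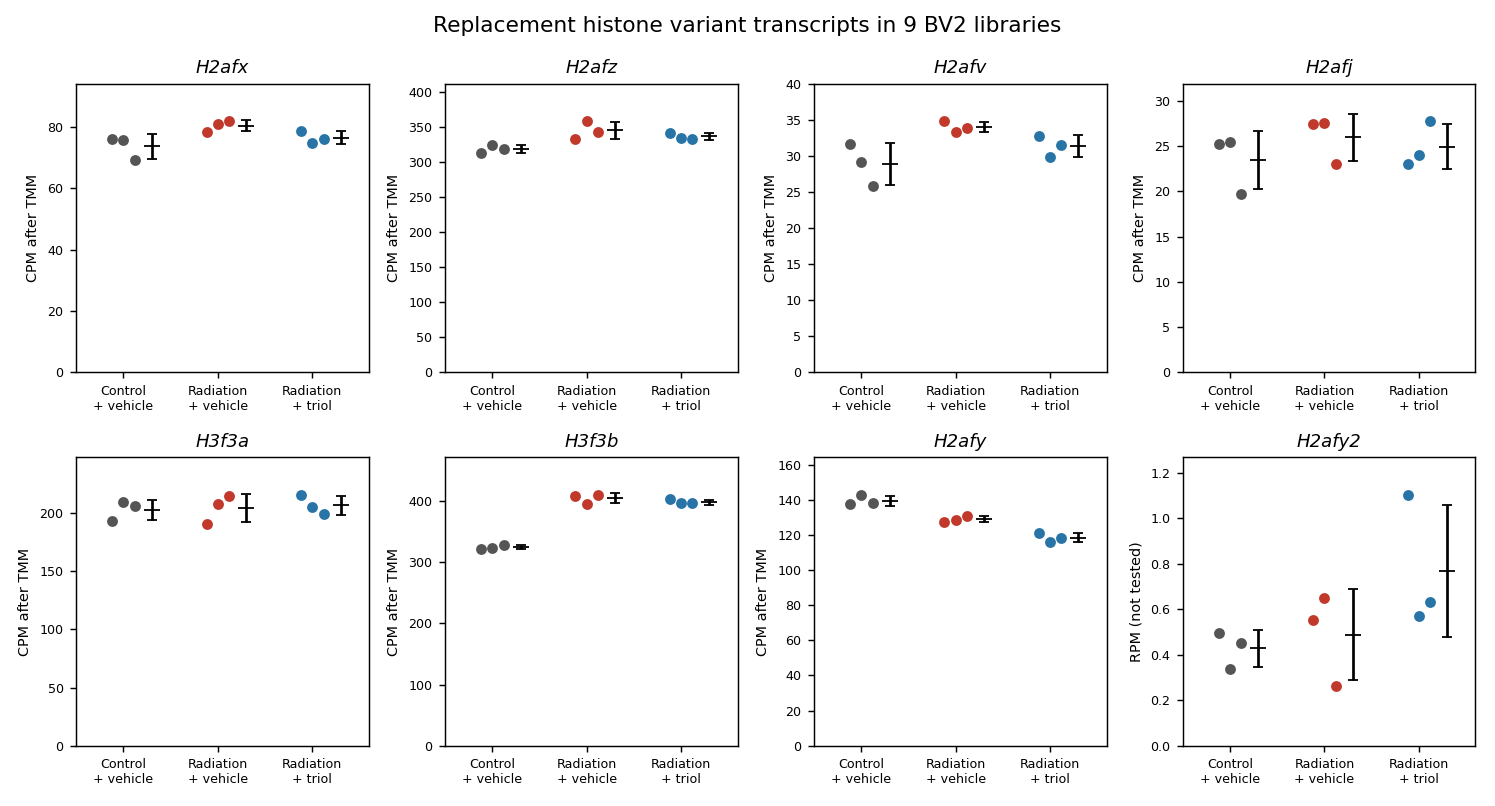
Level of each replacement variant in the 9 libraries, on axes that start at 0: CPM after TMM for the tested genes and RPM for H2afy2. Points are libraries and bars are mean ± SD (n = 3). The H3f3b points of both irradiated groups lie between 395 and 410 CPM, above the control points at 322 to 328, while the H3f3a points overlap between the groups.

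H3f3b had 322, 324 and 328 CPM in control libraries 1 to 3. It had 408, 395 and 410 CPM in irradiated and 403, 396 and 396 CPM in triol-treated libraries. Every irradiated library lay above every control library. The rise from 324 ± 3.17 to 404 ± 8.18 CPM gave a log2 fold change of 0.32 (SE 0.03, 95% interval 0.26 to 0.38, edgeR adjusted p = 1.4e-11). Across the 14 alternative fits the value was 0.31 to 0.35, and all of them kept the call. H3f3a had 193, 209 and 206 CPM in control, 191, 208 and 214 in irradiated and 215, 205 and 199 in triol-treated libraries. These groups overlapped. On irradiation H3f3a differed by 0.01 on the log2 scale (95% limits −0.07 and 0.09, adjusted p = 0.86), and the sign turned to between −0.0004 and −0.03 in 4 alternative fits.

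The balance of the pair can be read within a library, without scaling between libraries. H3f3a made up 37.5%, 39.2% and 38.5% of the summed H3f3a and H3f3b counts in control libraries. The share was 31.8%, 34.5% and 34.3% in irradiated libraries. The control libraries were all higher, by a mean difference of −4.87 percentage points for irradiated minus control (exact two-sided permutation p = 0.10, the smallest that 3 against 3 libraries allow, and 0.20 adjusted over the 12 within-library comparisons). In triol-treated libraries it was 34.8%, 34.1% and 33.4%, again below control (difference −4.30, exact permutation p = 0.10) and overlapping with the irradiated libraries (difference 0.57, exact permutation p = 0.70). H2afz made up 90.8% to 92.5% of the H2afz and H2afv counts in control and 90.6% to 91.5% in irradiated libraries, which overlapped (exact permutation p = 0.30).

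**Figure D2:**
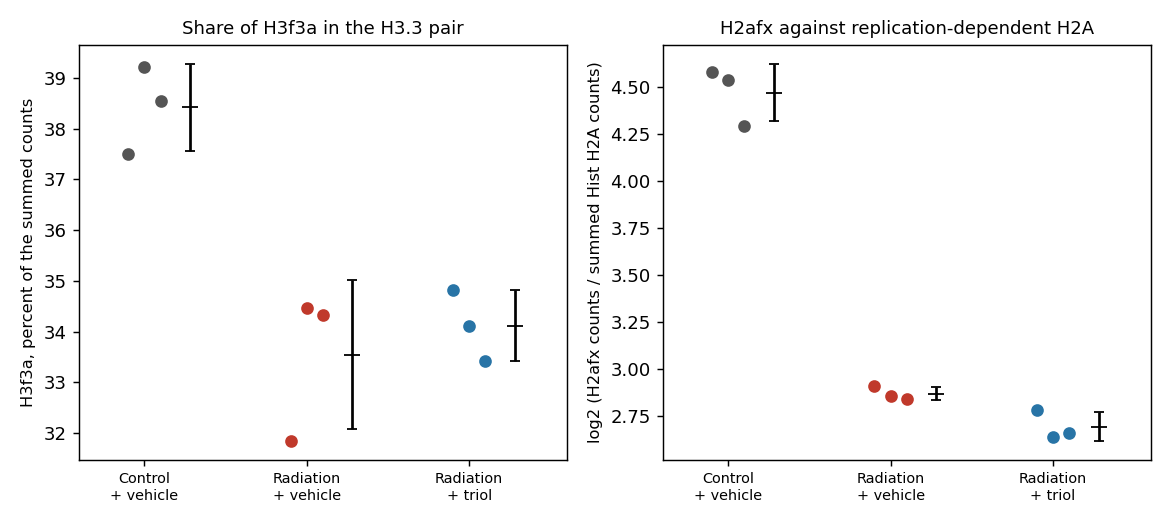
Left, percentage of H3f3a in the summed H3f3a and H3f3b counts, and right, log2 ratio of H2afx counts to the summed counts of replication-dependent H2A genes, in each library (points) with mean ± SD (n = 3). The vertical axes do not start at 0. Both measures are lower in all 6 irradiated libraries than in the 3 control libraries.

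The H2A.Z genes rose slightly. H2afz, on chromosome 3 from 137864487 to 137866922, had 313, 324 and 320 CPM in control, 334, 359 and 344 in irradiated and 342, 335 and 333 in triol-treated libraries. Irradiated and control libraries did not overlap, with a log2 fold change of 0.11 (SE 0.03, adjusted p = 0.0033). Without irradiated replicate 2, the highest library, it was 0.08 (adjusted p = 0.074). H2afv, on chromosome 11 from 6427229 to 6444443, had 31.7, 29.1 and 25.9 CPM in control, 34.8, 33.3 and 33.9 in irradiated and 32.8, 29.8 and 31.5 in triol-treated libraries. Its rise of 0.24 (SE 0.07, adjusted p = 0.0064) became 0.16 without control replicate 3, the lowest library (adjusted p = 0.082).

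H2afx had 76.2, 75.9 and 69.1 CPM in control, 78.6, 81.0 and 81.9 in irradiated and 78.9, 74.7 and 76.2 in triol-treated libraries. Control replicate 3 stood lowest and the irradiated libraries did not overlap with control. The log2 fold change was 0.13 (SE 0.05, interval 0.03 to 0.22, adjusted p = 0.028). Without control replicate 3 it was 0.08 (adjusted p = 0.22), and the call was also lost without irradiated replicate 2 (0.088) or 3 (0.097), with DESeq2 (0.098) and without a filter on low counts (0.058). H2afj, whose protein H2A.J accumulates in senescent cells with DNA damage, is on chromosome 6 from 136808244 to 136810074. It had 25.3, 25.5 and 19.7 CPM in control, 27.5, 27.6 and 23.0 in irradiated and 23.1, 24.1 and 27.8 in triol-treated libraries. The groups overlapped (log2 fold change 0.14, interval −0.04 to 0.33, adjusted p = 0.21). Control replicate 3 was the lowest library for H2afx, H2afv and H2afj alike.

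H2afx can be set against the canonical H2A genes of the same library. Canonical histone messenger RNAs lack a poly(A) tail, so their counts depend on whether poly(A) RNA was selected, which was not tested. Replication-dependent H2A genes together had 44 to 57 counts in each control, 153 to 175 in each irradiated and 199 to 230 in each triol-treated library. These counts are not scaled for depth. Total counts were 17230866 to 18944051 in triol-treated and 13879062 to 15192203 in irradiated libraries. The log2 ratio of H2afx to the summed H2A counts was 4.58, 4.54 and 4.30 in control and 2.91, 2.85 and 2.84 in irradiated libraries. The groups did not overlap, and the means were 4.47 ± 0.155 and 2.87 ± 0.036 (n = 3) (exact permutation p = 0.10, the smallest possible). In triol-treated libraries it was 2.78, 2.64 and 2.66, below all irradiated libraries (difference −0.18, exact permutation p = 0.10).

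The macroH2A gene H2afy, on chromosome 13 from 56073619 to 56136361, moved the other way. It had 138, 143 and 138 CPM in control, 127, 129 and 131 in irradiated and 121, 116 and 118 in triol-treated libraries. The 3 groups did not overlap with each other. The log2 fold change on irradiation was −0.11 (SE 0.04, interval −0.19 to −0.04, adjusted p = 0.014). The call was lost with upper quartile scaling (−0.09, adjusted p = 0.066), with library totals (−0.08, adjusted p = 0.089) and without control replicate 2 (adjusted p = 0.074). H2afy has splice forms that encode macroH2A1.1 and macroH2A1.2, which gene counts do not separate. H2afy2, which encodes macroH2A2, on chromosome 10 from 61738665 to 61784147, had 7, 6 and 7 reads in control, 8, 9 and 4 in irradiated and 19, 10 and 12 in triol-treated libraries. H2afy supplied at least 99.1% of the reads of the pair in every library.

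**Figure D3:**
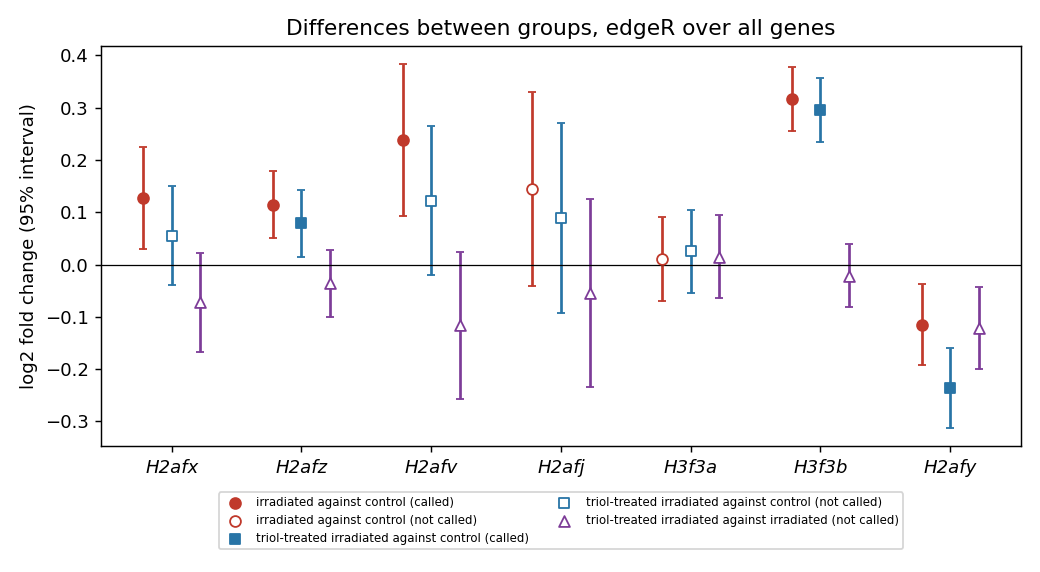
Log2 fold change (points) with its 95% interval (bars) for the 7 tested members in the 3 comparisons. Filled symbols passed at an adjusted p of 0.05. H3f3b is the highest in both comparisons with control, H2afy is below 0 in all 3 comparisons, and the comparison of triol-treated with irradiated libraries has no filled symbol.

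The second comparison asked whether triol given before irradiation changed these transcripts. None of the 7 tested members passed in edgeR, where 0.106% of all tested genes did (0.0974% up and 0.00885% down). The member count was also 0 in each alternative fit, but DESeq2 gave an adjusted p for H2afz, H3f3a and H3f3b alone and none for the other 4 members. In edgeR 1 member, H2afy, had an unadjusted p under 0.05. Its log2 difference between triol-treated and irradiated libraries was −0.12 (interval −0.20 to −0.04, adjusted p = 0.33). Libraries did not overlap for 2 members, H2afy and H2afv (−0.12, interval −0.26 to 0.02, adjusted p = 0.74), as for 13.2% of all tested genes. For H3f3b the difference was −0.02 with an interval of −0.08 to 0.04, and for H2afz it was −0.04 (−0.10 to 0.03). H2afx had −0.07 (−0.17 to 0.02), H2afj −0.05 (−0.23 to 0.13) and H3f3a 0.02 (−0.06 to 0.09), whose sign turned in 2 alternative fits. Among the 12 genes called in all were the 3 tested hepatocyte genes, Alb, Serpina3k and Serpina1e, all up. They had enough reads to be tested only in the triol-treated group. Summed over 6 hepatocyte genes, triol-treated libraries held 7.39 to 8.41 RPM against 0.329 to 1.86 in irradiated libraries. The part of that difference in these results was not tested.

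Against control, triol-treated irradiated libraries had 3 called members of 7, 2 up and 1 down, beside 43.3% of all tested genes (21.5% up and 21.7% down). Libraries did not overlap for 3 of 7 members and for 51.1% of all tested genes. H3f3b was higher by 0.30 (SE 0.03, adjusted p = 7.5e-11) and H2afy lower by a log2 difference of −0.24 (SE 0.04, adjusted p = 2.2e-06). Both kept the call in all 14 alternative fits. H2afz was higher by 0.08 (adjusted p = 0.042), a call that was lost in 8 of 14 alternative fits, among them those without any 1 of the 6 compared libraries (adjusted p 0.066 to 0.21). H2afx (0.06, interval −0.04 to 0.15, adjusted p = 0.36) and H2afv (0.12, −0.02 to 0.27, adjusted p = 0.16) did not pass. H2afj (0.09) and H3f3a (0.03) had adjusted p of 0.45 and 0.63, and the sign of each turned in 2 alternative fits. The comparisons share libraries, so their values are not independent.

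The proteins that place these variants were looked up as lists, whose counts stand beside 44.3% of all tested genes called on irradiation (22.1% up and 22.2% down). Among 10 tested genes of H3.3 deposition, 5 rose and 1 fell on irradiation, with a median log2 fold change of 0.10. Daxx, the H3.3 chaperone that works with ATRX, had 42.3 ± 1.42 CPM in control and 60.2 ± 4.4 CPM in irradiated libraries, a rise of 0.51 on the log2 scale (SE 0.06, adjusted p = 1.6e-09). Hira, of the complex that deposits H3.3 in active genes, rose by 0.49 (SE 0.08, adjusted p = 5.8e-06), with 14.9 ± 0.450 CPM before and 20.8 ± 0.575 CPM after. Atrx, the remodeller that pairs with DAXX, fell by 0.14 (SE 0.03, adjusted p = 0.00115). With triol Daxx and Hira were higher than in control by 0.58 and 0.57.

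Of 23 tested genes of the complexes that exchange H2A.Z, 5 rose and 3 fell, with a median of 0.05, and 5 passed in all without irradiated replicate 1. Epc1 and Actl6a, subunits of the TIP60 complex, rose by 0.21 and 0.20. Znhit1, a subunit of the SRCAP complex, fell by 0.35 on the log2 scale and Morf4l1 fell by 0.19. Of 14 tested genes that phosphorylate, read, dephosphorylate or exchange H2A.X, 4 rose and 1 fell, with a median of 0.09, and 8 passed with library totals. Atm, the kinase that phosphorylates H2A.X, rose by 0.28 (SE 0.04, adjusted p = 4.7e-07), with 102 ± 5.17 CPM in control and 125 ± 3.13 CPM in irradiated libraries. Supt16, a subunit of the FACT chaperone, rose by 0.23, and the phosphatase gene Eya3 fell by 0.14. Of 3 macroH2A partners Hells, a remodeller, rose by 0.32. The count on triol against irradiated libraries was 0 in each of these lists.

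Genes of replication and mitosis were counted in the same way. Of 26 tested replication-dependent core histone genes, out of 61 listed, 25 rose and 0 fell on irradiation, with a median of 2.41. That median was the same with Hist1h2bn, which had 0 control counts, at its lower bound. Those with few control counts had enough reads to be tested only in the irradiated groups. The filter on low counts thus partly set the split and the median. Summed over all 61, control libraries held 1392 to 1821 counts and irradiated libraries 3389 to 3505. Hist1h2bc and Hist2h2be, the highest in control at 50.8 and 32.5 CPM, rose by 0.99 and 0.77. The limit given above for messenger RNAs without a poly(A) tail applies here too. Hist1h2bn had 33 counts in the irradiated libraries together, at least 12-fold higher than control when 3 counts are taken as the floor over the group. Hist1h4c had 26 counts against 1, a ratio of 28.3 (95% exact counting interval 4.65 to 1160). That interval pools the libraries of a group and leaves out the spread between them. In edgeR the log2 fold change of Hist1h4c was 4.36 (interval 2.47 to 6.24). The 7 tested replacement variants lay between −0.11 and 0.32 on the same scale. Of 6 tested replication-coupled H3 chaperone genes 3 rose, among them Nasp (0.38) and Rbbp4 (0.09), and 1 passed without control replicate 1 or control replicate 2. Cenpa, the centromeric H3 variant, rose by 0.24 and the linker variant gene H1f0 by 0.48. Of 16 S phase genes 4 rose, led by Cdc6 and Mcm2 (0.27 each), a share near that of all tested genes called up. The other 12 did not pass. In this list 7 passed with upper quartile scaling or library totals. Of 16 mitotic genes 13 rose, led by Ccnb1 (0.57) and Cdc20 (0.38). Their summed level was 2657 to 2916 RPM before irradiation, 3265 to 3390 after it and 3184 to 3294 when triol was given. Microglial markers fell in 9 of 12, from a summed 2624 to 2759 RPM to 2025 to 2103 RPM, and were at 2039 to 2086 RPM with triol. The part of these shifts in the members' values was not tested.

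**Figure D4:**
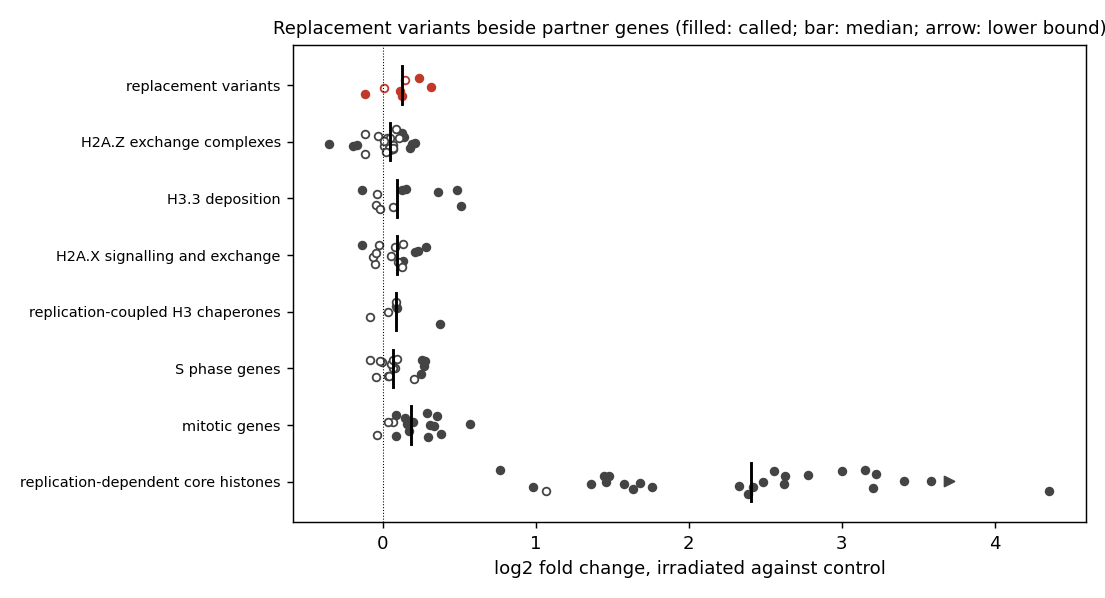
Log2 fold change of each tested gene, irradiated against control, in the replacement variants and in lists of related genes. Filled points passed at an adjusted p of 0.05, bars are medians, and the arrow marks a gene with 0 control counts drawn at its lower bound. The replacement variants lie between −0.11 and 0.32, and the median of replication-dependent core histones is 2.41. Core histone genes with few control counts passed the filter only through the irradiated groups.

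For each called member the genes with the most similar profile over the 9 libraries were listed by Pearson's r of log2 CPM, as a description of libraries that mostly differ by irradiation. For H2afx these were Ube2n (r = 0.959) and Msto1 (0.941), and for H2afv Ube2n (0.966) and Ntmt1 (0.951). H2afz was nearest to Fopnl (0.972) and Zfp934 (0.964). H3f3b was nearest to Map1b and Zfp346 (0.995 each), and H2afy to Pbx2 (0.968) and Wdr34 (0.959). By Spearman's rho the first gene was the same for H2afv among these 5 members.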

How the data were processed

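RNA was sequenced from 9 libraries of BV2 cells, 3 per group. Libraries were prepared with a NEBNext Ultra RNA kit from Trizol-extracted RNA, per the labels' protocols. Values are raw gene counts, as the authors deposited them. The submitters' processing notes name GRCm38 and the tools STAR 2.7.1a, Subread 1.6.3 with featureCounts, fastp 0.18.0 and FastQC. No annotation release or strand setting is stated. Titles gave the group and replicate number.

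Counts were filtered with filterByExpr, scaled with TMM and fitted with edgeR 4.0.16 (R 4.3.3) over all 9 libraries with robust dispersion. Tests were two-sided quasi-likelihood F tests, Benjamini-Hochberg adjusted over 11295 genes, with a threshold of 0.05, and were tested on simulated data. Alternatives used limma-voom 3.58.1, DESeq2 1.42.0, other scalings, no filter, only the compared groups, a replicate block and each library left out. Shares were compared with exact permutation tests (scipy 1.17.1). Libraries of a group differed by more than sampling noise. Named genes are the 8 members, from each list the 2 called genes with the largest rise and fall on irradiation, every list gene called for triol, and the 2 most similar genes per called member. Markers and the genes shown for their stem-loops were named outside this rule, with values known. Members and lists were chosen with earlier results of these data known. Sequences came from GENCODE M21 and, for promoters, RefSeq on GRCm38.p6, where 7 of 8 members matched.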

Additional observations from a re-analysis of the deposited data

How the results depend on the processing

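For irradiated against control, the number of called members was 3 to 5 when single libraries were left out, and 4 or 5 in the other fits. H3f3b kept its direction and call in all 14 fits. H2afx was no longer called in 5 fits, H2afy in 3, and H2afz and H2afv in 1 each. The cause was not tested. For triol-treated against irradiated libraries 12 genes were called in all, 6 to 9 on leaving out single libraries, 36 without a filter, 22 with only the compared groups, 21 with DESeq2 and 22 with the replicate block. The same-numbered libraries correlated at −0.05 to 0.04, which is too coarse to tell whether they were paired. In both comparisons with control, replicates 2 and 3 were nearest to the control library of the same number. The block left the number of called members at 5, 0 and 3. On the log2 scale, H3f3a against control was −0.000399 without a filter and −0.027 to 0.054 when single libraries were left out. Between triol-treated and irradiated libraries it was −0.036 to 0.051, and between triol-treated and control libraries −0.015 to 0.045. H2afj between triol-treated and control libraries was −0.031 to 0.15. At 4 to 19 reads per library, H2afy2 was too shallow to be tested.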
